A study of Mus musculus with 15 samples.

Results

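The maternal mouse liver was examined here for 9 genes that carry growth factor and insulin signals into hepatocytes. They are the receptor genes Egfr, Erbb2, Erbb3, Met, Fgfr4 and Insr, the co-receptor gene Klb, and the docking protein genes Irs1 and Irs2. The genes were taken by name from the 21702 protein-coding genes in the count table of the study. Each of the 9 has 1 row in that table, and all 9 were among the 12172 genes with enough reads for testing. The livers came from wild-type female mice, whose strain is C57BL/6 in the labels and C57BL/6N in the methods of the study, and all 15 of them had been injected through the tail vein with an AAV8 virus before mating or, in the non-pregnant (NP) group, without mating. The control virus, AAV8-null, carries no gene of interest, and AAV8-p21 expresses p21, an inhibitor of cyclin-dependent kinases, from the thyroxine-binding globulin promoter, which is active in hepatocytes. There were 5 groups of 3 mice: NP AAV8-null, AAV8-null at 8 days post-coitum (dpc), AAV8-null at 16 dpc, AAV8-p21 at 8 dpc and AAV8-p21 at 16 dpc. The groups analysed here hold no NP mouse with AAV8-p21 and no uninjected mouse, so every value refers to a liver that had received virus.

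Receptor tyrosine kinases bind a ligand outside the cell, pair up and phosphorylate themselves and their docking proteins, and these pass the signal to the MAPK and PI3K-AKT pathways. In hepatocytes, EGFR and MET receive the EGF family and HGF signals that drive liver regeneration, FGFR4 works with its co-receptor beta-Klotho to repress bile acid synthesis in response to intestinal FGF15, and the insulin receptor acts through IRS1 and IRS2. Transcription of Irs2 is known to be raised by FOXO1 when insulin signalling is low.

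The libraries held 12280709 to 17615185 counted reads, and levels are given as CPM, which are counts scaled to a common library size of 1e6 reads after TMM normalisation in edgeR. The make-up of the libraries differed with stage. Alb took 7.90 to 12.9% of the reads in NP and 8 dpc livers and 20.5 to 27.8% at 16 dpc, and the TMM factors, which correct for such shifts, lay between 0.682 and 1.25. With TMM, the median change of all tested genes between 16 dpc and NP AAV8-null livers was −0.03 on the log2 scale, and with total counts in its place it was −0.70, so all changes below are relative to the median gene unless total counts are named. Cdkn1a, the gene of p21, lay at 3.29 to 127 CPM in the AAV8-null libraries and at 347 to 1664 CPM in the AAV8-p21 libraries, as labelled. The 7 hepatocyte markers were present in every group with a summed level of 76413 to 436538 CPM. The samples were pieces of whole liver, so fewer cells of a type and less RNA per cell cannot be told apart. Nothing in the labels ties mice across groups, and each p-value measures the spread between these mice.

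Before the comparisons, the levels of the 9 genes can be set beside each other only after division by the summed length of their exons, as CPM per kb. On that scale Erbb3, whose product binds neuregulins and signals through its partner kinases, was the highest of the 9 in NP livers, with 16.4 ± 1.64 CPM per kb (SD, n = 3 mice). Egfr, the receptor of EGF, TGF-alpha and related ligands, followed with 10.2 ± 2.76. Met, Insr, Klb and Fgfr4 came next with means between 8.14 and 9.19 CPM per kb, and their ranges over the 3 mice overlapped one another and that of Egfr. Irs2 lay at 4.03 ± 0.897 and Irs1 at 2.54 ± 0.357 CPM per kb, with ranges that did not overlap. Erbb2, which encodes the ligand-less partner of the other ErbB receptors, was by far the lowest at 0.166 ± 0.0681 CPM per kb. It had 1 to 19 reads per library, so its changes could be seen at this depth only if they were large. In 16 dpc AAV8-null livers the order differed. Egfr stood first with 30.9 ± 14.6 CPM per kb, above Erbb3 with 16.4 ± 2.34, and Irs2 had moved up to the third place with 11.8 ± 1.55 CPM per kb. Fgfr4 was then at 4.28 ± 0.233 and Irs1 at 1.23 ± 0.485 CPM per kb, and the ranges of Egfr, Erbb3 and Irs2 did not overlap one another.

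**Figure D1:**
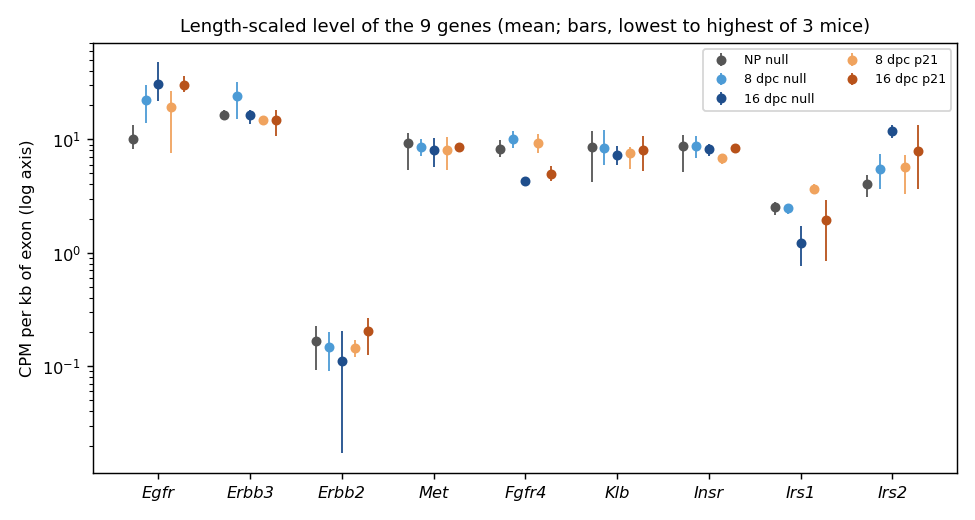
Level of each gene in CPM per kb of exon (log axis) in the 5 groups; points are means of 3 mice and bars run from the lowest to the highest mouse. Erbb2 lies below 1 CPM per kb in every group, Egfr is the highest of the 9 at 16 dpc, and Irs1 and Irs2 lie farther apart in 16 dpc AAV8-null livers than in NP livers.

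Upstream sequence is shown for Egfr, Irs2 and Irs1, because Egfr and Irs2 are the 2 of the 9 that rose at 16 dpc, and Irs1, the partner of Irs2, was lower there while its window holds the same motifs. The 250 bases before the start of each gene are from RefSeq, build GRCm38.p6, written 5′ to 3′ on the strand of the gene. RefSeq windows were found for 7 of the 9 genes, leaving out Insr and Erbb3. All distances are from the RefSeq start, which is not always the GENCODE end of the gene given with the levels below. The starts are the same for Egfr, that of RefSeq lies farther upstream for Irs1 and Irs2, and it lies inside the GENCODE gene for Erbb2, Met, Fgfr4 and Klb. Capitals mark an E-box, CACGTG, which SREBP and clock factors among others bind. They also mark TGTTTTG, called the FOXO core here, which lies at the heart of insulin response elements. Both were searched on both strands.
Egfr, chr11:16751953-16752202, plus strand: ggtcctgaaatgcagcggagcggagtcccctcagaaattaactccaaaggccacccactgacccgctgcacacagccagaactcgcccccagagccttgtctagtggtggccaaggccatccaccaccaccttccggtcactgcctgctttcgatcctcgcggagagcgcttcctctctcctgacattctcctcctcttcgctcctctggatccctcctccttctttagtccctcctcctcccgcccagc
Irs2, chr8:11008930-11009179, minus strand: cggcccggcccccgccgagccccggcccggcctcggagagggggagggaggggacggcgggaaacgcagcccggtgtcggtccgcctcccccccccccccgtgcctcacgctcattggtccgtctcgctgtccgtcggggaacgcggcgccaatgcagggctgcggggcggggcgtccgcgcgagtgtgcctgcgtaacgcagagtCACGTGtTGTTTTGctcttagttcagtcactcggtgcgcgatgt
Irs1, chr1:82291440-82291689, minus strand: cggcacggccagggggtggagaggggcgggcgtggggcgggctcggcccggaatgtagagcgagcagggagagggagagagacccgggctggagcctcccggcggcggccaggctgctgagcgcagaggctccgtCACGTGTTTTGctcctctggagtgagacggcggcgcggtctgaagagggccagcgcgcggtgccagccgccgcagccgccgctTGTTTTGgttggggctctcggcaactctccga
In Irs2, the E-box stood 44 to 39 bases and the FOXO core 37 to 31 bases before the start. In Irs1, the E-box stood 115 to 110 bases before the start and overlapped a FOXO core at 111 to 105 bases, and another FOXO core stood 32 to 26 bases before it. Of 32851 mouse promoter windows of this length, 6.02% held the E-box, 5.56% held the FOXO core and 0.295% held both. Met held the E-box 126 to 121 bases before its RefSeq start, within the GENCODE gene, and Egfr, Erbb2, Fgfr4 and Klb held neither. A match describes the letters of a window and is not a binding site.

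The first question was how the receptor genes differed between NP and pregnant AAV8-null livers. At 16 dpc, 3 of the 9 passed the test against NP (edgeR's quasi-likelihood test with Benjamini-Hochberg adjustment over all tested genes, adjusted p under 0.05), against 6.52% of all tested genes. Egfr rose 3.04-fold and Irs2 2.93-fold, beside 3.71% of all genes that rose, and Fgfr4 fell to a 1.90-fold lower level, beside 2.82% that fell. With a further limit of 1 on the size of the log2 fold change, Egfr and Irs2 passed, beside 4.91% of all genes. Irs1 was lower in every 16 dpc mouse without passing the test, and Erbb2, Erbb3, Met, Klb and Insr differed from NP by less than 1 standard error. The median log2 difference of the 9 genes was −0.19 and that of all tested genes −0.03.

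Egfr (chromosome 11, 16752203 to 16918158, plus strand, GRCm38) was at 93.3, 101 and 151 CPM in the 3 NP livers. The AAV8-null livers of 8 dpc had 344, 261 and 157 CPM, and those of 16 dpc 249, 261 and 541 CPM. Every pregnant AAV8-null mouse lay above every NP mouse, the highest value by far was that of 1 mouse at 16 dpc, and the 8 and 16 dpc groups overlapped. The log2 fold change against NP was 1.61 (SE 0.44) at 16 dpc, with adjusted p = 0.0412 by edgeR and a 95% interval of the fold from 1.59 to 5.82. At 8 dpc Egfr was 2.21-fold higher than in NP livers (95% interval 1.16 to 4.19, adjusted p = 0.547). In that comparison edgeR called 0% of the 12172 genes, while 6.6% had an unadjusted p under 0.05 and 10.2% had groups that did not overlap. Of the 9 genes, Egfr and Erbb3 had such an unadjusted p, and Egfr alone had groups that did not overlap. Between 8 and 16 dpc AAV8-null livers the log2 difference was 0.46 (SE 0.43) with adjusted p = 0.570. The 16 dpc call for Egfr was lost in 5 of the 6 fits that left out 1 mouse of these groups (adjusted p from 0.0409 to 0.171), and the log2 fold change fell to 1.15 without the highest 16 dpc mouse. With total counts in place of TMM it was 0.98 with adjusted p = 0.0760, and with the replicate numbers as a block adjusted p was 0.0801.

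Of the 11 ErbB ligand genes, which include neuregulin genes beside those of the Egfr ligands, 5 were tested. Egf, the founding ligand, was read 4 to 10 times per library in NP livers and 13 to 29 times at 16 dpc. This low level was higher in every 16 dpc AAV8-null mouse, with a log2 fold change of 1.65 (SE 0.46, adjusted p = 0.0444 by edgeR), a call lost with total counts. Tgfa, the ligand made by hepatocytes during regeneration, went the other way in its values, from 14.4 ± 1.23 CPM (SD, n = 3) in NP livers and 14.2 ± 2.85 at 8 dpc to 7.47 ± 2.07 CPM at 16 dpc, with a log2 fold change against NP of −0.95 (SE 0.27, adjusted p = 0.0517). Btc, the betacellulin gene, fell between 8 and 16 dpc by 1.62 on the log2 scale (SE 0.43, adjusted p = 0.0374), from 19 to 31 reads per library to 3 to 7. Erbb4, the fourth ErbB receptor, was read 3 to 49 times per library, with group means between 0.598 and 2.29 CPM. None of the 9 genes in the list of ErbB partners and feedback regulators passed the test in any of these comparisons.

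Erbb3 (chromosome 10, 128567523 to 128589652, minus strand) was at 93.0, 110 and 93.1 CPM in NP livers. Its levels in AAV8-null livers were 194, 150 and 90.0 CPM on 8 dpc, compared with 104, 109 and 82.9 CPM on 16 dpc. A pair of the 3 mice at 8 dpc stood above all others, the third lay below the NP mice, and the NP and 16 dpc groups overlapped. Its log2 difference was 0.55 (SE 0.25, adjusted p = 0.746) between 8 dpc and NP, −0.55 (SE 0.25, adjusted p = 0.216) between 16 and 8 dpc, and 0.00 (SE 0.25) between 16 dpc and NP, none of which passed. Without the lowest 8 dpc mouse, the fall from 8 to 16 dpc was −0.80 with adjusted p = 0.0405. Erbb2 (chromosome 11, 98412470 to 98437716, plus strand) had 7, 15 and 17 reads in the NP libraries and 12, 7 and 1 in the 16 dpc AAV8-null libraries, with a 95% interval of the fold between these groups from 0.280 to 1.63. Erbb2 overlaps Mien1 on the other strand, which had 334 to 861 reads per library, and whether the counting used the strand is not given in the sources used here.

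**Figure D2:**
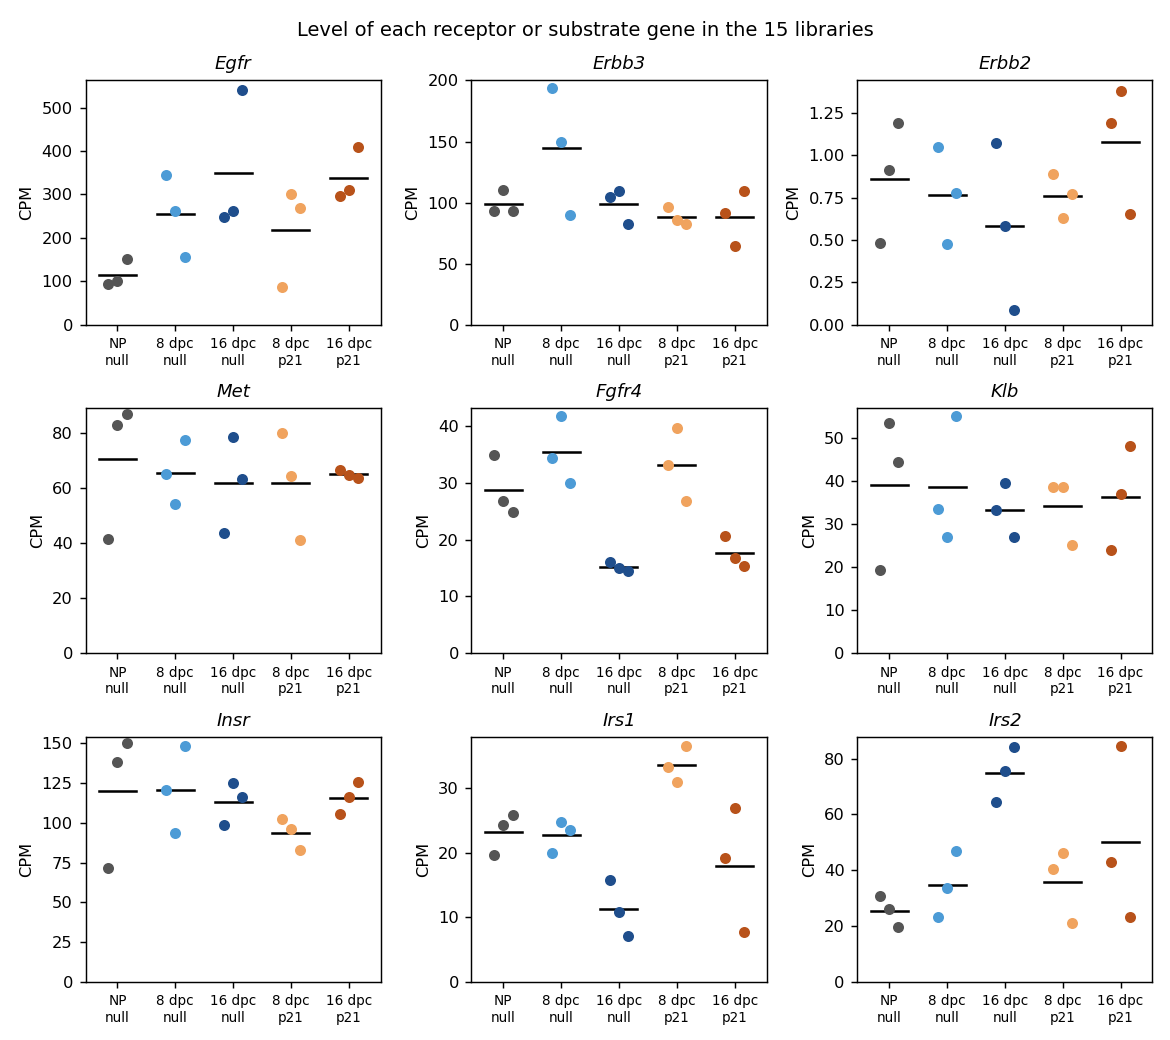
CPM of the 9 genes in each of the 15 libraries (points) with group means (lines); each panel has its own linear axis from 0. The 3 Fgfr4 points of 16 dpc AAV8-null livers lie at 14.4 to 16.04 CPM, below all NP and 8 dpc points, whereas the NP and AAV8-null groups of Insr, Met and Klb overlap.

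Met, the HGF receptor (chromosome 6, 17463800 to 17573980, plus strand), varied as widely within the NP group as anywhere, with 41.6, 83.2 and 86.9 CPM there and 43.9, 78.9 and 63.3 CPM in 16 dpc AAV8-null livers. Group means over the 5 groups lay between 62.0 and 70.6 CPM. The 95% interval of its fold between 16 dpc and NP was 0.564 to 1.37, which leaves room for a moderate change in either direction. Of the 9 genes in the list of HGF and its activation, 8 were tested and 1 passed against NP. Hgfac, whose protease converts the HGF precursor into its active form, rose from 165 ± 67.1 to 358 ± 68.2 CPM at 16 dpc (log2 fold change 1.11, SE 0.31, adjusted p = 0.0455 by edgeR), a call lost with total counts. Hgf itself, made by stellate and endothelial cells, was at 7.00 ± 4.26 CPM in NP, 5.02 ± 1.71 at 8 dpc and 14.7 ± 8.75 CPM at 16 dpc, and the NP and 16 dpc groups overlapped (adjusted p = 0.271).

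Fgfr4 (chromosome 13, 55152640 to 55168759, plus strand) was at 34.8, 26.8 and 24.9 CPM in NP livers. The 8 dpc AAV8-null mice had 34.4, 41.8 and 30.0 CPM, whereas the 16 dpc mice had 16.04, 14.997 and 14.4 CPM. All 16 dpc mice lay below all NP and all 8 dpc mice, whose ranges overlapped. Fgfr4 fell by 0.93 on the log2 scale against NP (SE 0.20, adjusted p = 0.0126 by edgeR), and by 1.22 against 8 dpc (SE 0.20, adjusted p = 0.00269), where it was the 1 gene of the 9 to pass, beside 6.87% of all tested genes (3.16% higher and 3.71% lower, and 5.41% with a log2 fold change beyond 1). Between 16 and 8 dpc, Fgfr4, Irs1 and Irs2 had groups that did not overlap, beside 25.4% of all genes, and the median log2 difference of the 9 was −0.21, against 0.00 for all genes. The fall against 8 dpc passed in all 6 fits without 1 mouse and in all 11 other settings tried. The fall against NP missed the threshold without the third 16 dpc mouse (adjusted p = 0.0514) and with the 2 groups fitted alone (adjusted p = 0.0516).

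Klb, the beta-Klotho gene (chromosome 5, 65348314 to 65384007, plus strand), had 19.3, 53.4 and 44.4 CPM in NP livers and 33.2, 39.6 and 27.0 CPM at 16 dpc, and the groups overlapped. Its log2 difference was −0.23 (SE 0.37), and the difference between the changes of Klb and Fgfr4 was not tested. In the FGF axis list, 9 of 11 genes were tested. Fgf15, the intestinal hormone that acts on this receptor pair, was listed at 0 reads in all 15 libraries. Cyp7a1, the rate-limiting enzyme of bile acid synthesis and the main target of the pair, fell from 130 ± 72.5 CPM in NP livers to 15.2 ± 14.7 CPM at 16 dpc (log2 fold change −3.09, SE 0.78, adjusted p = 0.0295). Fgf21, a hormone of the fasting liver, was at 7.25 ± 3.74 CPM in NP, 2.80 ± 3.02 at 8 dpc and 44.7 ± 20.9 CPM at 16 dpc, higher in each 16 dpc mouse but with adjusted p = 0.197 against NP and 0.0623 against 8 dpc. Fgfr2, another FGF receptor, rose between 8 and 16 dpc from 18.1 ± 3.68 to 37.9 ± 11.8 CPM (log2 fold change 1.06, SE 0.24, adjusted p = 0.0176), a call lost with total counts. Some markers of other cell types were also higher at 16 than at 8 dpc in these mice. Of 5 endothelial markers, all had a log2 difference above 0 (median 0.87) and 2 rose, Pecam1 and Clec4g, and of 5 stellate cell markers 1 rose, Dcn (1.04, SE 0.22, adjusted p = 0.0144). Their part in the Fgfr4 and Fgfr2 changes was not tested.

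**Figure D3:**
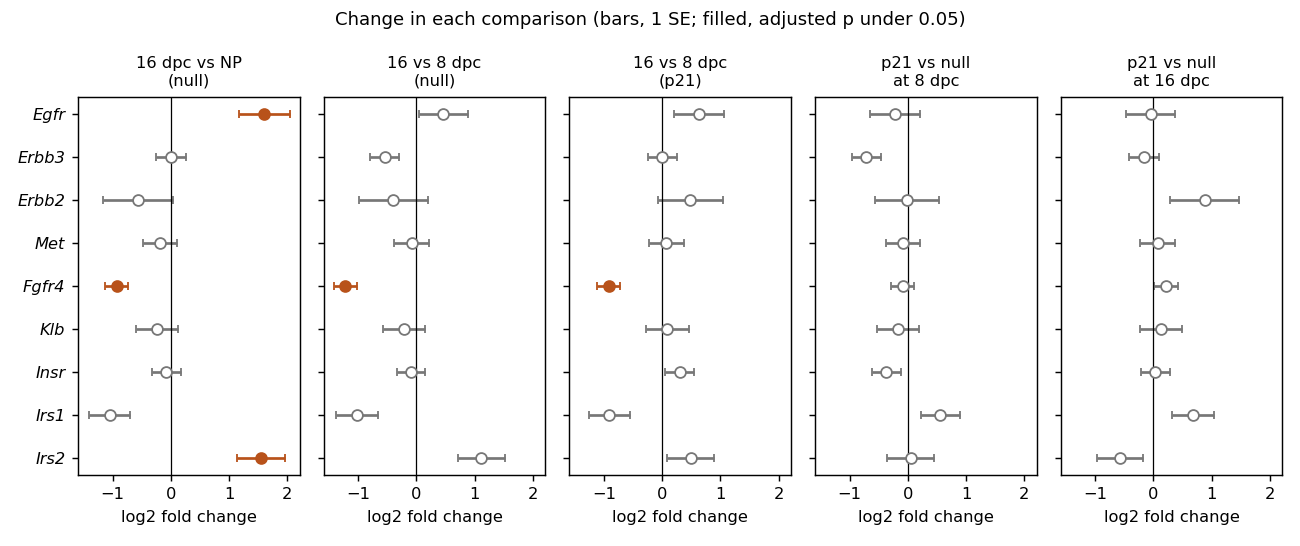
Log2 fold change of each gene in 5 comparisons; points are edgeR estimates, bars are 1 SE, and filled points passed at adjusted p under 0.05. Fgfr4 is filled and left of 0 in all 3 comparisons of 16 dpc with an earlier stage, and no point is filled in either comparison of AAV8-p21 with AAV8-null.

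Insr, the insulin receptor (chromosome 8, 3122061 to 3279617, minus strand), was at 71.4, 138 and 150 CPM in NP livers. The values were 121, 93.8 and 148 CPM for the 8 dpc AAV8-null group and 98.6, 125 and 116 CPM for the 16 dpc one. The 3 groups overlapped, and the 95% interval of the fold between 16 dpc and NP ran from 0.654 to 1.37. Igf1r, the related receptor of IGF1, was read 12 to 42 times per library. None of the 15 tested insulin signal transducers passed in any comparison between stages.

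Irs2 (chromosome 8, 10984681 to 11008458, minus strand) was at 30.9, 26.01 and 19.6 CPM in NP livers. Among AAV8-null mice, 8 dpc gave 23.2, 33.6 and 46.9 CPM, and 16 dpc gave 64.5, 75.6 and 84.1 CPM. The 16 dpc mice stood above every NP and every 8 dpc mouse. Irs2 rose by 1.55 on the log2 scale against NP (SE 0.41, adjusted p = 0.0355 by edgeR), and its difference from 8 dpc was 1.11 (SE 0.40, adjusted p = 0.115). The call against NP was lost in all 6 fits that left out 1 mouse, with adjusted p from 0.0507 to 0.135 and log2 fold changes from 1.39 to 1.71. With total counts the log2 fold change was 0.88 with adjusted p = 0.0847.

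Irs1 (chromosome 1, 82233101 to 82291416, minus strand) was at 19.6, 24.3 and 25.9 CPM in NP livers. Its AAV8-null levels were 20.0, 24.8 and 23.6 CPM for 8 dpc, and 15.9, 10.7 and 7.03 CPM for 16 dpc. All 16 dpc mice were below all NP and 8 dpc mice. The log2 difference was −1.05 (SE 0.35, adjusted p = 0.0979) against NP and −1.02 (SE 0.35, adjusted p = 0.0969) against 8 dpc, so neither passed in edgeR, while DESeq2 fitted to the 15 libraries put the adjusted p against NP at 0.0498. Between 16 dpc and NP, 4 of the 9 genes (Egfr, Irs2, Fgfr4 and Irs1) had groups that did not overlap, beside 24.6% of all tested genes. Gm9747, which overlaps Irs1 on the other strand, had 0 reads in every library.

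Because the same library supplies both genes, their ratio depends on library scaling only through the pseudocount of 0.5 CPM that was added to each. The ratio was chosen after the values had been seen and is given without a test. The log2 ratio of Irs2 to Irs1 was 0.64, 0.10 and −0.39 in NP livers, 0.21, 0.43 and 0.98 at 8 dpc and 1.99, 2.76 and 3.49 at 16 dpc in AAV8-null livers. With AAV8-p21 it was 0.27, 0.56 and −0.78 for the 8 dpc mice and 1.1402, 1.64 and 1.51 for those of 16 dpc. Within either virus, each 16 dpc mouse had a higher ratio than any mouse of an earlier stage, and at 16 dpc the 3 AAV8-p21 mice lay below the 3 AAV8-null mice. Clock and fasting genes separated the same 2 groups. The mean log2 level of 3 activating minus that of 6 output clock genes was −4.45, −4.33 and −2.58 in the 16 dpc AAV8-p21 mice and 1.82, −1.24 and 1.504 in the 16 dpc AAV8-null mice. The mean log2 CPM of 12 fasting and PPAR-alpha target genes was 8.47 to 9.89 in the former and 10.2 to 11.0 in the latter. The part of either in the ratio was not tested.

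Of the 9 insulin and FOXO1 target genes, 1 passed between 16 dpc and NP. Igfbp1, a FOXO1 target that insulin represses, rose from 118 ± 28.4 CPM in NP livers to 1472 ± 477 CPM in 16 dpc AAV8-null livers (log2 fold change 3.64, SE 0.45, adjusted p = 0.000365), and from 159 ± 101 CPM at 8 dpc (adjusted p = 0.000835). Of the 9 genes of the list, 5 had a log2 difference from NP below 0 and the median of the 9 was −0.38. In the list of inhibitors and other modulators of insulin signalling, 11 genes were tested and 3 rose against NP. These were the cytokine-induced Cish (log2 fold change 2.05, SE 0.31) and Socs3 (2.76, SE 0.62) and the phosphatase gene Ptpn1 (0.96, SE 0.24), with adjusted p of 0.00133, 0.0165 and 0.0273. Ptpn1 also rose between 8 and 16 dpc (0.89, SE 0.24, adjusted p = 0.0374), and both of its calls were lost with total counts. Beside these changes, the mean log2 CPM of 12 fasting and PPAR-alpha target genes was 10.2 to 11.0 in 16 dpc AAV8-null mice, 9.43 to 9.70 in NP mice and 8.37 to 9.89 at 8 dpc. The feeding state at sampling is not given in the labels, and its part in these changes was not tested.

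**Figure D4:**
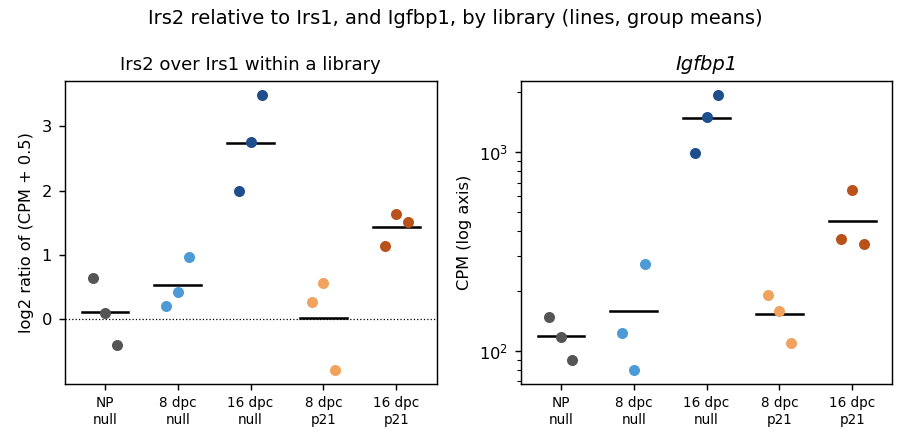
Log2 ratio of Irs2 to Irs1 (left) and CPM of Igfbp1 on a log axis (right), for each of the 15 libraries with group means as lines. The 3 mice of the 16 dpc AAV8-null group have the highest ratios, 1.99 to 3.49, and the highest Igfbp1 levels, 981 to 1935 CPM.

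As a readout of the pathway shared by these receptors, 9 of 10 MAPK feedback genes were tested. Dusp5, an ERK phosphatase, rose at 16 dpc against NP (log2 fold change 1.77, SE 0.49, adjusted p = 0.0437) and against 8 dpc (2.11, SE 0.49, adjusted p = 0.0209), from 5 to 34 reads per library at 8 dpc to 32 to 76. Spry1, a Sprouty inhibitor of receptor tyrosine kinases, rose against 8 dpc (1.19, SE 0.32, adjusted p = 0.0419), and the other 7 did not pass in either comparison. In each comparison 5 of the 9 feedback genes had a log2 difference below 0. The median of the 9 was −0.08 against NP and −0.02 against 8 dpc. Over all 86 genes of the 8 lists of ligands, partners and targets, 75 were tested, and 7 rose and 1 fell against NP, while 6 rose and 1 fell against 8 dpc, beside 6.52% and 6.87% of all tested genes. Both counts share the 16 dpc mice. The median log2 difference of the 75 was 0.13 in both comparisons. With total counts in place of TMM, 3 partner genes rose and 27 fell against NP, and the same numbers did against 8 dpc. All 8 and all 7 of these partner genes kept their direction. Those that kept their call were Igfbp1, Cyp7a1, Cish and Socs3 against NP, and Igfbp1, Dusp5 and Btc against 8 dpc. On that scale 5 of the 9 receptor and docking protein genes fell against NP and 0 rose, beside 48.6% of all tested genes that fell: Fgfr4 (−1.60), Irs1 (−1.76), Met (−0.88), Insr (−0.77) and Erbb3 (−0.69), with adjusted p between 0.000204 and 0.0385. Of all called genes, the share that was higher went from 56.8% with TMM to 3.79% with total counts against NP, and from 46.1% to 2.92% against 8 dpc.

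The second question was whether p21 expression altered these genes. Between AAV8-p21 and AAV8-null livers, 0 of the 9 passed at 8 dpc and 0 at 16 dpc, beside 0.0246% and 0.0739% of all tested genes. At 8 dpc 1 of the 9 had an unadjusted p under 0.05, beside 5.18% of all genes, and at 16 dpc 0 had, beside 9.77%. DESeq2 and limma voom also called 0 of the 9 at either stage, while over all genes they called 29 to 105 at 8 dpc and 117 to 135 at 16 dpc. At 16 dpc 0 of the 9 had groups that did not overlap, beside 13.7% of all genes. With total counts in place of TMM, 56.3% of the few genes called at 16 dpc were higher, against 22.2% with TMM. The comparisons at 8 and 16 dpc share the AAV8-null groups with those above.

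Irs1 was at 33.4, 31.0 and 36.6 CPM in AAV8-p21 livers at 8 dpc, above each of the 3 AAV8-null mice at that stage. It was the 1 gene of the 9 whose groups did not overlap there, beside 10% of all tested genes. The log2 difference was 0.56 (SE 0.34, adjusted p = 1), with a 95% interval of the fold from 0.888 to 2.45. At 16 dpc Irs1 was at 19.2, 26.9 and 7.79 CPM in AAV8-p21 livers, and the groups overlapped, with a log2 difference of 0.68 (SE 0.35, adjusted p = 0.557). Irs2 in the same livers was at 42.8, 84.6 and 23.2 CPM, with a log2 difference of −0.57 (SE 0.40, adjusted p = 0.665). The mouse with the highest Irs2 also had the highest Irs1, and the mouse with the lowest Irs2 the lowest Irs1. Igfbp1 was at 363, 643 and 345 CPM in these 3 livers, below each 16 dpc AAV8-null mouse, with a log2 difference of −1.71 (SE 0.42, adjusted p = 0.145). These are the groups that the clock and fasting genes also separated, and the part of those states in the Irs1, Irs2 and Igfbp1 values was not tested. The summed level of the 5 cholangiocyte markers was also higher in every AAV8-p21 mouse, at 36.0 to 53.3 CPM against 17.998 to 26.8 CPM at 8 dpc and 19.6 to 43.0 against 8.41 to 17.3 CPM at 16 dpc. Most of that sum was Spp1, 0 of the 5 markers passed the test at either stage, and their part in the p21 comparisons was not tested. The 5 stellate cell markers summed to 124 to 181 CPM in AAV8-p21 and 75.1 to 123 CPM in AAV8-null livers at 8 dpc, without overlap. All 5 had a log2 difference above 0 there (median 0.71), and 0 passed. At 16 dpc their sums overlapped, with 151 to 189 against 153 to 199 CPM, and their part was not tested.

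Erbb3 was the gene with an unadjusted p under 0.05. It was at 96.0, 85.9 and 82.8 CPM in AAV8-p21 livers at 8 dpc, with a log2 difference of −0.71 (SE 0.25, unadjusted p = 0.0139, adjusted p = 0.763). Of the AAV8-null mice, 2 were higher than all of these and the third, at 90.0 CPM, lay among them. At 16 dpc the log2 difference was −0.16 (SE 0.25).

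With AAV8-p21, Egfr was at 86.3, 300 and 268 CPM on 8 dpc, where 1 mouse lay below all NP mice, and 297, 310 and 409 CPM were found on 16 dpc. The 95% intervals of the fold between AAV8-p21 and AAV8-null were 0.456 to 1.61 at 8 dpc and 0.514 to 1.82 at 16 dpc. The same interval at 16 dpc was 0.863 to 1.56 for Fgfr4, 0.675 to 1.64 for Met, 0.637 to 1.88 for Klb and 0.707 to 1.48 for Insr. Erbb2, with 9 to 19 reads in the 16 dpc AAV8-p21 libraries, had a log2 difference of 0.88 (SE 0.59, adjusted p = 0.651). In the FGF axis list, 0 genes passed at 16 dpc. Cyp7a1 was at 45.2 to 252 CPM in the AAV8-p21 livers and 5.75 to 32.2 CPM in the AAV8-null livers at that stage, without overlap (log2 difference 3.41, SE 0.79, adjusted p = 0.122). Fgfr1, another FGF receptor, also had groups that did not overlap (1.35, SE 0.30, adjusted p = 0.102). Both were named after their values were seen. The effect of p21 at 16 dpc minus that at 8 dpc was tested as an interaction, which called 0 of the 12172 genes in edgeR, with 3.09% at an unadjusted p under 0.05. For the 9 genes the interaction lay between −0.62 (Irs2, SE 0.57) and 0.89 (Erbb2, SE 0.81), all with adjusted p = 0.999971.

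Within AAV8-p21 livers, 1 of the 9 passed between 16 and 8 dpc, beside 3.32% of all tested genes (2.09% higher and 1.23% lower). The 1 that passed, Fgfr4, had 33.1, 39.6 and 26.9 CPM in the 8 dpc mice, compared with 20.6, 16.9 and 15.3 CPM in the 16 dpc mice, without overlap. It fell by 0.92 on the log2 scale (SE 0.20, adjusted p = 0.0200 by edgeR), which is within a limit of 1 that 2.74% of all genes exceeded. These mice are not those of the AAV8-null comparison, so the fall of Fgfr4 between 8 and 16 dpc was seen in separate sets of animals. The call was lost in 4 of 6 fits without 1 mouse (adjusted p from 0.0153 to 0.0933) and with the 2 groups fitted alone (0.0535). In the same mice the 5 endothelial markers summed to 106 to 140 CPM at 8 dpc and 158 to 173 CPM at 16 dpc. All 5 had a log2 difference above 0 (median 0.48), and 0 passed. Of 12 clock genes, 8 had a log2 difference above 0 and 4 below, 6 were higher without overlap, and 0 passed. The part of either in the Fgfr4 fall was not tested. Irs1 was again lower in each 16 dpc mouse, with a log2 difference of −0.91 (SE 0.35, adjusted p = 0.191), and Insr higher in each, with 0.31 (SE 0.25, adjusted p = 0.607), which turned to −0.27 with total counts. Irs1, Insr and Fgfr4 were the genes of the 9 whose groups did not overlap, beside 22.9% of all tested genes. The median log2 difference of the 9 genes was 0.09 and that of all genes −0.02. With total counts, 4.15% of all called genes were higher, against 62.9% with TMM. Of the 75 tested partner genes, 2 rose. Egf went from 5 to 10 reads per library to 18 to 33 (log2 fold change 2.26, SE 0.46, adjusted p = 0.0133), and Mst1, which encodes the HGF-like ligand of the receptor RON, from 121 ± 13.5 to 204 ± 13.1 CPM (0.75, SE 0.17, adjusted p = 0.0294). With total counts Egf kept its call and Mst1 lost it.

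The levels of Insr, Met and Klb moved together between mice of the same group. After subtraction of group means, Pearson's r over the 15 libraries was 0.88 for Insr and Klb, 0.87 for Insr and Met and 0.72 for Met and Klb. These points share library preparation and scaling, and the values are descriptions. Insr has 13746 exon bases, Met 7679 and Klb 4549, beside a median of 4473 over the tested genes. A measure of transcript length moved with all 3. The mean log2 level of 2940 tested genes with at least 7000 exon bases, minus that of 775 genes with at most 1500, correlated with Insr, Met and Klb at r of 0.93, 0.93 and 0.89. The first NP mouse stood lowest, with a deviation of −0.71 in this measure and of −0.67, −0.68 and −0.87 in Insr, Met and Klb. Egfr, with 11326 exon bases, had r of −0.11 with the measure, Irs2 0.15, Irs1 −0.13, Erbb3 −0.08 and Fgfr4 −0.43. The part of this measure in the wide NP spread of Insr, Met and Klb was not tested. In an edgeR model with it as a covariate, added after the values had been seen, the 3 calls against NP and the Fgfr4 calls between 16 and 8 dpc were kept.

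**Figure D5:**
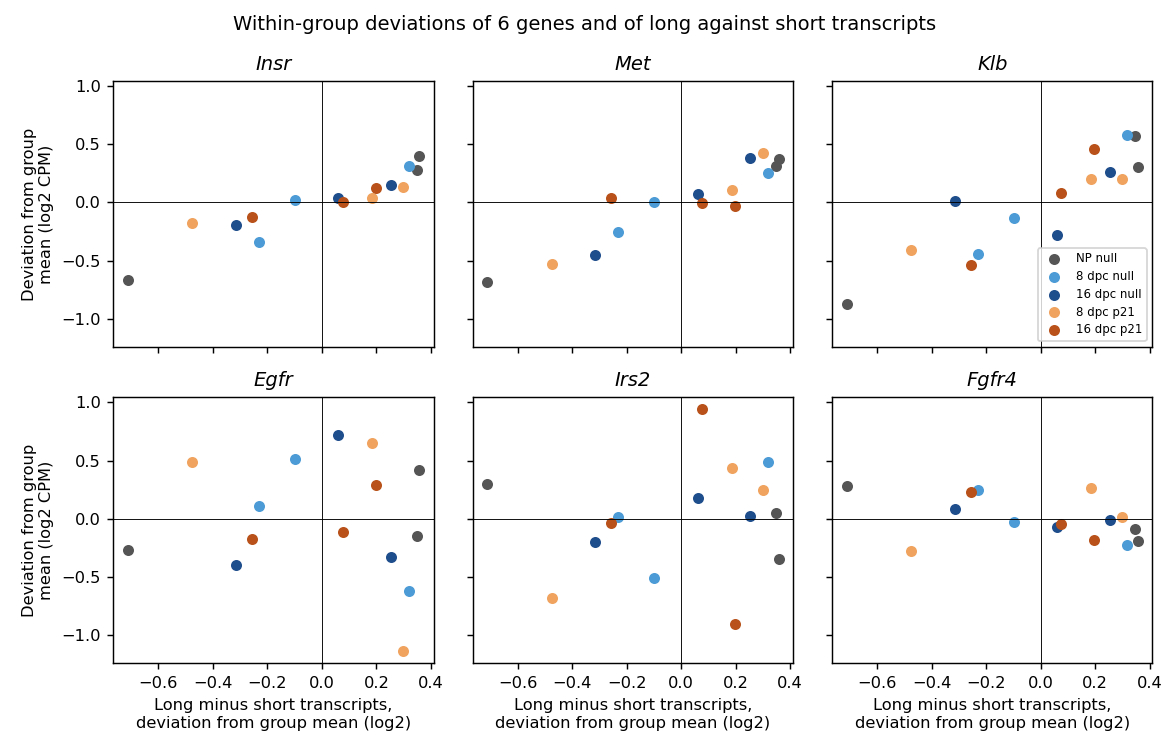
Deviation of 6 genes from their group mean (log2 CPM, vertical) against the deviation of long minus short transcripts (log2, horizontal) in the 15 libraries, coloured by group. Insr, Met and Klb rise along the axis (r of 0.93, 0.93 and 0.89), and Egfr, Irs2 and Fgfr4 do not (−0.11, 0.15 and −0.43).

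The tested genes whose log2 CPM was most like each member over the 15 libraries differed from member to member. For Egfr they were Slc39a14, a zinc transporter gene, Ifngr2 and Fga, a fibrinogen chain gene, with r of 0.87, 0.85 and 0.85. For Fgfr4 they were Fam149a, Nxpe2 and Tgtp1 (0.97, 0.94 and 0.93), for Irs1 Cyp27a1, a bile acid synthesis enzyme gene, Il18 and Aox3 (0.93 each), and for Irs2 Fam222a, Il1b and Igfbp1 (0.90, 0.84 and 0.84). For Insr they were Abca6, Fam91a1 and Fam126b, for Met Sbf2, Strn and Zyg11b, and for Klb Baz2a, Kif1c and Dpp8, with r of 0.92 to 0.95. For Erbb3 they were Hps4, Brd8 and Snx33 (0.86, 0.83 and 0.82) and for Erbb2 Map2, Gnb4 and Arhgap25 (0.81, 0.80 and 0.79). These values mix differences between groups with differences between mice and are descriptions.

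Markers of other liver cells were read in all groups. The 5 endothelial markers summed to 113 to 211 CPM in NP, 81.3 to 113 at 8 dpc and 160 to 215 CPM at 16 dpc in AAV8-null livers. The 5 stellate cell markers summed to 147 to 148, 75.1 to 123 and 153 to 199 CPM in the same groups, most of it Dcn. Of these 5, 1 passed between 16 dpc and NP: Lrat, the retinol-esterifying enzyme gene of stellate cells, fell from 16.9 to 6.38 CPM (log2 fold change −1.41, SE 0.35, adjusted p = 0.0279). In that comparison 3 of the 5 had a log2 difference above 0, and the median was 0.04. The 5 Kupffer cell markers summed to 167 to 223, 127 to 267 and 134 to 195 CPM. The 5 lymphoid and erythroid markers summed to 43.1 to 146 CPM over all groups. Of these, 4 were tested and 1 rose between NP and 16 dpc. Hbb-bs, a haemoglobin gene, went from 36.7 to 75.8 CPM (log2 fold change 1.05, SE 0.29, adjusted p = 0.0442 by edgeR), while 2 of the 4 had a log2 difference below 0. The 7 hepatocyte markers summed to 94770 to 111530 CPM in NP livers and 311783 to 436538 CPM in 16 dpc AAV8-null livers, a sum that is mainly Alb. Of these 7, Alb and Apoa1 rose between NP and 16 dpc, Ttr, the transthyretin gene, fell from 4597 to 1728 CPM (log2 fold change −1.41, SE 0.33, adjusted p = 0.0214), and 4 did not pass. No marker was at 0 reads in all mice of a group. The clock gene difference ran from −4.45 to 2.66 over the 15 mice, and its values in NP livers were 0.39, −3.97 and −4.05. The part of cell make-up and of the time of day in the changes of the 9 genes was not tested.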

How the data were processed

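Liver RNA of 15 mice was sequenced as stranded mRNA libraries with single-end reads. After trimming (cutadapt 1.14) and alignment to mm10 (HISAT2 2.1.0), the authors deposited raw counts of uniquely mapped reads per protein-coding gene from HTSeq 0.12.4. The strand setting of that counting is not given in the sources used here. Exon lengths and positions were taken from a GENCODE annotation of GRCm38, in which 21588 of the 21702 genes were found.

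Genes with low counts were removed with filterByExpr (minimum count 10), leaving 12172, and libraries were scaled by TMM. A quasi-likelihood model with 5 groups was fitted to all 15 libraries in edgeR 4.0.16 (R 4.3.3), and p-values were adjusted by the Benjamini-Hochberg method over all tested genes. The common biological coefficient of variation was 0.277 with 10 residual degrees of freedom. DESeq2 1.42.0 and limma 3.58.1 served as alternatives. An exact permutation test of 3 against 3 mice cannot give a p below 0.1. For log2 CPM a pseudocount of 0.5 was added.

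The 9 genes, the partner lists and the markers were chosen with earlier results of these data known. Named partner genes are up to 4 called genes per list and comparison, by smallest p, plus fixed ligands and receptors, and likeness names the 3 genes with the highest r. The scripts were tested on simulated data. No 2 libraries were identical. In 1 group, the 16 dpc AAV8-p21 mice, the replicate numbers of the table differ from those of the labels, so they were used without a number. Over all 18 pairs with the same number in different groups, the mean correlation of deviations was 0.00588, and 7 were above 0.1. Over the 36 pairs with other numbers the mean was −0.00701, and 14 were above 0.1, so the numbers were not taken as pairs.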

Additional observations from a re-analysis of the deposited data

How the results depend on the processing

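Of 510 values of single receptor and docking protein genes under other settings, 465 kept their direction and side of the threshold, 23 lost and 18 gained a call, and 4 changed sign, none of them called. A further 33 changes were smaller than their standard error and carry no direction. Of their 554 values under other settings, 92 changed sign and 4 were called, all with total counts. Between AAV8-p21 and AAV8-null, 0 of the 9 genes were called under every setting and every left-out mouse. The cause of the changes below was not tested.

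Total counts in place of TMM gave 5 receptor and docking protein genes, 30 partner genes and 6150 genes in all for 16 dpc against NP, 4, 30 and 6508 for 16 against 8 dpc (AAV8-null), 2, 11 and 4317 for 16 against 8 dpc (AAV8-p21), and 16 genes in all for AAV8-p21 against AAV8-null at 16 dpc. With it, Egfr between 16 and 8 dpc (AAV8-null) was −0.19, and between 16 and 8 dpc (AAV8-p21) Insr was −0.27 and Irs2 −0.12 on the log2 scale.

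For 8 dpc against NP, limma voom with sample weights called 3 receptor genes (Egfr, Erbb3 and Fgfr4), 15 partner genes and 1850 genes in all, DESeq2 on all libraries 73 genes in all, DESeq2 on the compared groups 1 partner gene and 78 in all, and the long-transcript covariate, added after seeing the data, 1 and 92. For 16 dpc against NP, voom called 1602 genes in all, DESeq2 on all libraries 1207 and the covariate 1408. EdgeR on the compared groups called 1 of the 9 genes, 5 partner genes and 399 in all. For 16 against 8 dpc (AAV8-null), voom called 4 of the 9, 15 partner genes and 1707 in all, DESeq2 on all libraries 14 partner genes and 1362 in all, DESeq2 on the compared groups 3 of the 9 and 1104 in all, the covariate 17 partner genes and 1603 in all, and edgeR on the compared groups 2 partner genes and 338 in all. For 16 against 8 dpc (AAV8-p21), voom called 16 partner genes and 1817 in all, DESeq2 7 and 802 on all libraries and 8 and 868 on the compared groups, and the covariate 5 and 759. EdgeR on the compared groups called 0 of the 9 and 388 in all there, a log2 limit of 1 called 0 of the 9, 1 partner gene and 334 in all, and a filter of 10 counts in every library called 1 partner gene.

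For AAV8-p21 against AAV8-null at 8 dpc, the genes called in all were 105 by voom, 29 by DESeq2 on all libraries, 84 by DESeq2 on the compared groups (2 partner genes), 36 with the covariate, 5 by edgeR on the compared groups and 0 with 10 counts in every library. At 16 dpc they were 117 by voom, 135 by DESeq2 on all libraries and 135 on the compared groups (3 partner genes each time), 57 with the covariate, 5 by edgeR on the compared groups, 21 with no filter and 3 with 10 counts in every library. For the interaction, DESeq2 on the compared groups called 14 genes.

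Leaving out 1 mouse at a time gave 0 to 1 partner genes and 0 to 92 genes in all for 8 dpc against NP, 0 to 2 of the 9, 2 to 7 partner genes and 373 to 734 in all for 16 dpc against NP, and 1 to 2, 1 to 12 and 258 to 1279 for 16 against 8 dpc (AAV8-null). It gave 0 to 1, 0 to 2 and 159 to 464 for 16 against 8 dpc (AAV8-p21), 2 to 38 genes in all for AAV8-p21 against AAV8-null at 8 dpc and 3 to 35 at 16 dpc. Irs2 between 16 and 8 dpc (AAV8-p21) ran from −0.12 to 0.83 on the log2 scale.

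The replicate block could be fitted on 12 numbered libraries, whose numbers do not pair the mice by the check of their deviations. With the replicate block, 2 of the 9 genes, 6 partner genes and 657 genes in all were called for 16 dpc against NP, against 5 partner genes and 739 in all without it. For 16 against 8 dpc (AAV8-null), 1 of the 9, 6 and 655 were called, against 2 of the 9 and 754 in all without it, and for AAV8-p21 against AAV8-null at 8 dpc the block left 2 genes in all. With the block, Egfr missed the threshold against NP.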
